A study of Mus musculus with 8 samples.

Results

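The genes described here are 47 genes of the lysosome, of its proton pump (the vacuolar H+-ATPase, V-ATPase) and of autophagy, taken by name from the 55367 gene rows of a count table of mouse kidney RNA. All 47 were found. They comprise membrane and lipid-export proteins, soluble hydrolases and their helpers, commonly expressed V-ATPase subunits, the transcription factors *Tfeb* and *Tfe3*, and autophagy genes. RNA-Seq libraries had been made from whole kidneys of 4 Maf conditional KO mice and 4 Maf flox/flox mice, all of strain C57BL/6J and labelled with an age of 8 weeks. Both genotypes carried floxed *Maf* and, according to the study's methods, both received tamoxifen. The Maf conditional KO mice also carried CAG-Cre-ERTM, whose CAG promoter is active in most cell types, so that deletion of *Maf* was not limited to a renal cell type, and the controls carried no Cre. The comparison asks how the kidney transcriptome changes when the transcription factor c-Maf is removed in the adult.

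Lysosomes are acidic organelles in which hydrolases break down protein, lipid, glycogen and glycosaminoglycans, and the V-ATPase pumps the protons that keep them acidic. Autophagy delivers a cell's own material to them inside double-membraned vesicles that carry proteins of the LC3 and GABARAP families. In the kidney, proximal tubule cells have many lysosomes that digest protein taken up from the filtrate, and intercalated cells also place V-ATPase on their surface to secrete acid. TFEB and TFE3 are transcription factors of the MiT/TFE family, which bind the letters CACGTG within a longer element found near the start of many lysosomal genes.

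These letters were searched in the 250 bases before each start site that RefSeq lists on GRCm38.p6, because the members' own regulators read them. A start site was listed for 42 of the 47 genes and for 27025 genes in all, and a gene with several start sites was counted once if any of them held the letters. CACGTG, which reads the same on both strands, was present before 12 of the 42 genes (28.6%) and before 6.86% of all listed genes. The 12 were *Lamp1*, *Mcoln1*, *Clcn7*, *Naglu*, *Sgsh*, *Gla*, *Glb1*, *Arsa*, *Gaa*, *Atp6v1a*, *Atg5* and *Atg7*. The longer palindrome TCACGTGA, which contains CACGTG, was present before 3 of the 42 (7.14%) and before 0.907% of all listed genes. A match describes the letters of the window and is not evidence of binding. The 27025 listed genes were not matched to the 42 for expression or base composition. The windows with the longer palindrome belong to *Mcoln1*, a lysosomal calcium channel, *Gla*, the alpha-galactosidase deficient in Fabry disease, and *Atp6v1a*, the catalytic subunit of the V-ATPase. They are printed from 5′ to 3′ on the gene's strand, with the palindrome in capitals, and *Gla* has it at 2 places. In the deposited annotation *Mcoln1* starts at chr8:3500457 and the minus-strand gene *Atp6v1a* at chr16:44139705. The windows of *Mcoln1* and *Atp6v1a* therefore lie inside those genes as annotated there.
Mcoln1, chr8:3500465-3500488, plus strand: cgccccgcTCACGTGAccgcggcg
Gla, chrX:134601218-134601241, minus strand: gcgattgaTCACGTGAgcatctac
Gla, chrX:134601185-134601208, minus strand: gatctcggTCACGTGAgcaactct
Atp6v1a, chr16:44139376-44139399, minus strand: tttttaaaTCACGTGAtaggctta

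The libraries held between 16649129 and 22990257 counts, of which the 47 genes took 0.613% to 0.767%, and mitochondrially encoded genes took 17.1% to 32.3%. Values are given below as TMM-normalized CPM, that is, counts relative to a library size that was scaled so that most genes are level between libraries, and as mean ± SD with n = 4 mice per genotype. *Maf*, the targeted gene, had 178, 671, 533 and 187 counts in Maf conditional KO mice 1 to 4 and 7746, 7580, 6018 and 5988 in Maf flox/flox mice 1 to 4, and fell by 4.05 on the log2 scale (edgeR adjusted *P* = 0.0115). *Xist*, the RNA that coats the inactive X chromosome, had 2 counts in Maf conditional KO mouse 1 and 6 and 22 in Maf flox/flox mice 3 and 4, against 17618 to 22387 in the other 5 mice, and the labels do not give the sexes. Genotype differences are therefore also given with the *Xist* level as a covariate and for the 5 mice with high *Xist* (3 Maf conditional KO, 2 Maf flox/flox). The Maf log2 fold change did not pass in those 5 mice (-3.87, adjusted *P* = 0.108) or with the replicate number as a block (-4.28, adjusted *P* = 0.0516). An extraction note in the labels names liver; of 10 liver genes, *Ahsg* had 0 counts in every library, *Tat* reached 0.111 CPM and *Alb* 8.85 CPM, while *Fga* (17.9 to 49.2 CPM) and *Cyp2e1* (47.2 to 1398 CPM) were higher and the other 5 reached at most 14.5 CPM. *Lrp2*, the albumin receptor of proximal tubule cells, was at 4466 to 8602 CPM, and the tissue label is whole kidney.

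Few of the 47 genes differed between the genotypes. All 47 passed the filter on low counts, as 20149 of the 55367 genes did. At an adjusted *P* under 0.05 in edgeR's quasi-likelihood test, 1 gene was higher in Maf conditional KO mice (*Idua*) and 1 was lower (*Gaa*). Over all tested genes 118 (0.586%) were higher and 318 (1.58%) were lower, and a single call of 47 in each direction is near that background. At an unadjusted *P* under 0.05 there were 2 higher (*Idua*, *Scarb2*) and 5 lower (*Gaa*, *Hexa*, *Lipa*, *Neu1*, *Becn1*), beside 6.58% and 7.44% of all tested genes. The values of the genotypes did not overlap for 4 of the 47 genes (*Idua*, *Gaa*, *Hexa* and *Lipa*), against 9.79% of all tested genes. The median log2 fold change of the 47 genes was -0.03, beside 0.003 over all tested genes, and 32 of the 47 lay within 0.2 of no change. In kidney homogenates of this kind, fewer cells of a type and less RNA per cell cannot be told apart.

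**Figure D1:**
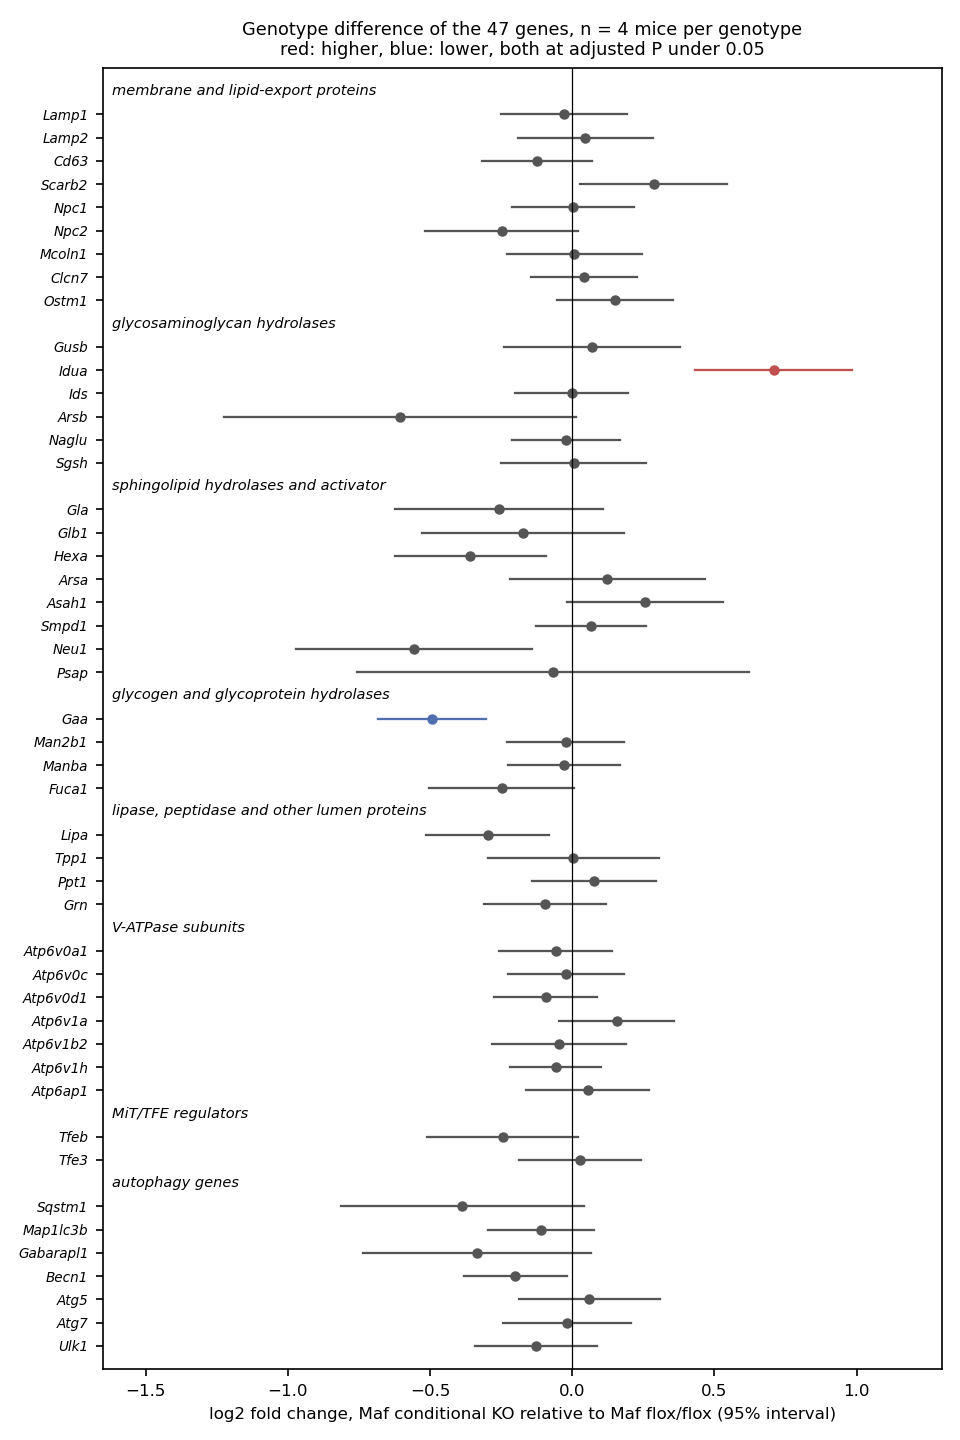
Log2 fold change (x axis) of each of the 47 genes (y axis, in blocks by role) in Maf conditional KO relative to Maf flox/flox mice, with the 95% interval of the fit as a line. Idua (red, 0.71) and Gaa (blue, -0.49) are the genes past the adjusted threshold, and most points sit within 0.2 of 0.

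The membrane and lipid-export proteins showed no called difference (0 of 9; 1 higher and 0 lower at an unadjusted *P* under 0.05). *Lamp1*, the most abundant glycoprotein of the lysosomal membrane, had the highest level per kilobase of exon of this class, at 249 CPM per kb in Maf flox/flox mice. *Lamp1* stood at 711, 645, 636 and 613 CPM in Maf conditional KO mice 1 to 4 and at 602, 599, 733 and 726 in Maf flox/flox mice 1 to 4. The 2 ranges overlapped, and the log2 fold change of *Lamp1* was -0.03 (95% interval -0.25 to 0.19, adjusted *P* = 0.932). *Scarb2* (LIMP-2), which carries glucocerebrosidase to lysosomes, had the smallest *P* of the class. It measured 118, 80.2, 89.1 and 98.2 CPM in Maf conditional KO and 74.3, 75.7, 90.5 and 75.5 in Maf flox/flox mice. Maf flox/flox mouse 3 reached into the range of the Maf conditional KO mice, and the difference of 0.29 on the log2 scale (interval 0.03 to 0.55) did not pass edgeR's test (adjusted *P* = 0.305). The other members ran from -0.25 for *Npc2*, which hands cholesterol to NPC1 in the lumen, to 0.15 for *Ostm1*, the partner of the chloride exchanger CLCN7. *Lamp2*, *Npc1*, *Mcoln1* and *Clcn7* lay within 0.05 of no change, with intervals inside -0.23 to 0.28, and *Cd63*, a tetraspanin of late endosomes, was at -0.12 (interval -0.32 to 0.07).

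Among the glycosaminoglycan hydrolases, *Idua* was higher in Maf conditional KO mice, and no other of the 6 was called. *Idua* encodes alpha-L-iduronidase, which removes iduronic acid from heparan and dermatan sulfate and is deficient in Hurler syndrome. Its gene lies at chr5:108660331-108684557 on the plus strand. *Idua* measured 19.2, 15.4, 17.9 and 16.4 CPM in Maf conditional KO mice 1 to 4 and 11.9, 10.4, 11.1 and 8.74 CPM in Maf flox/flox mice 1 to 4. Every Maf conditional KO mouse lay above every Maf flox/flox mouse, with means of 17.2 ± 1.68 and 10.5 ± 1.33, and *Idua* rose by 0.71 on the log2 scale (SE 0.127, edgeR adjusted *P* = 0.0123). Of the exonic bases of *Idua*, 6.3% are shared with other genes, mainly *Slc26a1*, a sulfate and oxalate transporter gene, and reads on shared bases were not counted for either gene. *Slc26a1* moved the other way, from 128 ± 26.2 CPM in Maf flox/flox to 33.8 ± 6.11 in Maf conditional KO mice (log2 fold change -1.92, adjusted *P* = 0.00018). Whether the overlap has a part in the rise of *Idua* was not tested. Without Maf conditional KO mouse 3 the fold change of *Idua* was 0.69 with an adjusted *P* of 0.0583, and the other 7 fits that each left out a mouse kept the call. With the replicate number as a block *Idua* was not called.

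The bases before the start of *Idua* are shown because it is the member that rose. The 250 bases at chr5:108660081-108660330 of GRCm38.p6, plus strand, hold no CACGTG and hold TGCTGA, a short form of the Maf recognition element, on the opposite strand (TCAGCA, in capitals). TGCTGA on either strand was present before 6 of the 42 genes (14.3%; *Lamp2*, *Scarb2*, *Clcn7*, *Idua*, *Naglu* and *Tpp1*) and before 18% of all listed genes.
Idua, plus strand: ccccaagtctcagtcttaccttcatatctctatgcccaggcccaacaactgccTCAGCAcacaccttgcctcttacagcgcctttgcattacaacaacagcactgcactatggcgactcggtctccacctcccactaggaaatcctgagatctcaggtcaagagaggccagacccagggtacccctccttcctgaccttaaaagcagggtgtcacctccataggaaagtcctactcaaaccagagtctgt

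*Arsb*, arylsulfatase B, which acts on dermatan and chondroitin sulfate, had the highest level per kilobase of the class (25.1 CPM per kb in Maf flox/flox mice) and the lowest log2 fold change of all 47 genes. *Arsb* measured 144, 91.6, 89.7 and 72.2 CPM in Maf conditional KO mice and 111, 116, 184 and 195 in Maf flox/flox mice. Maf conditional KO mouse 1 lay inside the range of the Maf flox/flox mice, and the spread within each genotype left an interval of -1.23 to 0.01 around -0.61 (adjusted *P* = 0.366). Of the 36-base sequences of *Arsb* transcripts, 39.3% also occur in other annotated genes, mainly *Gm26527*, so part of its reads could have been assigned elsewhere. The remaining 4 genes, *Gusb*, *Ids*, *Naglu* and *Sgsh*, lay between -0.02 and 0.07, and their interval ends ran from -0.25 to 0.38.

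The sphingolipid hydrolases and their activator showed no called difference (0 of 8), and 2 were lower at an unadjusted *P* under 0.05. *Hexa*, the alpha subunit of beta-hexosaminidase A, which degrades GM2 ganglioside and is deficient in Tay-Sachs disease, had the smallest *P* of the class. *Hexa* measured 22.6, 33.6, 30.9 and 31.4 CPM in Maf conditional KO mice and 41.5, 38.6, 37.1 and 34.7 in Maf flox/flox mice. The genotypes did not overlap, but the log2 difference of -0.36 (SE 0.121) did not pass edgeR's test (adjusted *P* = 0.195), and Maf conditional KO mouse 1 was the lowest of all. *Hexa* shares 12.8% of its exonic bases with other genes, mainly *Tmem202*. *Neu1*, the sialidase deficient in sialidosis, measured 227, 158, 160.03 and 152 CPM in Maf conditional KO and 194, 211, 303 and 316 in Maf flox/flox mice. Here Maf conditional KO mouse 1 again stood apart, this time above the other 3 and within the range of the controls, and the log2 difference of -0.56 (interval -0.97 to -0.14) had an adjusted *P* of 0.203.

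*Psap*, which encodes prosaposin, the precursor of the saposins that present sphingolipids to their hydrolases, had the highest level per kilobase of all 47 genes (466 CPM per kb in Maf flox/flox mice). It measured 1999.8, 1016, 917 and 945 CPM in Maf conditional KO mice and 990.3, 976, 1606 and 1540.1 in Maf flox/flox mice. Each genotype held both high and low values, and the log2 difference was -0.07 with an interval of -0.76 to 0.62 (adjusted *P* = 0.950). *Asah1*, acid ceramidase, was at 0.26 (interval -0.02 to 0.53, adjusted *P* = 0.396), with 80.1 CPM in Maf conditional KO mouse 1 and 46.7 to 59.3 in the other 7 mice. *Gla* had the lowest level of the 47 genes, at 4.26 ± 0.557 CPM in Maf conditional KO and 5.10 ± 0.520 in Maf flox/flox mice. *Glb1* (beta-galactosidase), *Arsa* (arylsulfatase A) and *Smpd1* (acid sphingomyelinase) were at -0.17, 0.12 and 0.07, with intervals that held 0.

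Of the glycogen and glycoprotein hydrolases, *Gaa* fell and the other 3 were not called. *Gaa* encodes acid alpha-glucosidase, which releases glucose from lysosomal glycogen and is deficient in Pompe disease, and lies at chr11:119267887-119285454 on the plus strand. *Gaa* measured 80.2, 97.4, 95.7 and 101 CPM in Maf conditional KO mice 1 to 4 and 132, 128, 131 and 135 CPM in Maf flox/flox mice 1 to 4. Every Maf conditional KO mouse lay below every control, the 4 controls lay close together (132 ± 2.83 against 93.5 ± 9.12), and *Gaa* fell by 0.49 on the log2 scale (SE 0.0867, edgeR adjusted *P* = 0.0112), a change of -28.9%. It shares no exonic base with another gene, and the call held in all 8 fits that each left out a mouse. With the replicate number as a block *Gaa* was not called. The 174 bases at chr11:119267713-119267886 of GRCm38.p6, just before the gene's start in the deposited annotation, are printed because *Gaa* is the member that fell. They hold CACGTG (in capitals) and no TGCTGA on either strand.
Gaa, plus strand: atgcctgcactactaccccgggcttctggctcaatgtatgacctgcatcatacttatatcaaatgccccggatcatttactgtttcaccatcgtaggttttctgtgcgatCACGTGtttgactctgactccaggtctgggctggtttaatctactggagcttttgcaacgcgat

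*Fuca1*, alpha-L-fucosidase, had the highest level per kilobase of that class (48.0 CPM per kb in Maf flox/flox mice). It measured 155, 127, 127 and 121 CPM in Maf conditional KO and 143, 135, 167 and 184 in Maf flox/flox mice. Only Maf conditional KO mouse 1 reached the range of the controls, and the log2 difference was -0.25 (interval -0.50 to 0.01, adjusted *P* = 0.372). The mannosidases *Man2b1* and *Manba* were at -0.02 and -0.03, with interval ends from -0.23 to 0.18.

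The lipase, peptidase and other lumen proteins showed no called difference (0 of 4). *Lipa*, lysosomal acid lipase, which frees cholesterol and fatty acids from lipoprotein lipid, measured 151, 159, 136 and 164 CPM in Maf conditional KO mice and 181, 212, 193 and 164 in Maf flox/flox mice. The genotypes did not overlap, but the highest Maf conditional KO value and the lowest Maf flox/flox value of *Lipa* were equal after rounding. The log2 difference was -0.30 (SE 0.0991, adjusted *P* = 0.188). *Grn*, progranulin, had the highest level per kilobase of the class, at 38.4 CPM per kb in Maf flox/flox mice. It measured 146, 115, 110 and 129 CPM in Maf conditional KO and 136, 124, 138 and 135 in Maf flox/flox mice, with overlapping ranges and a log2 difference of -0.10 (adjusted *P* = 0.726). The peptidase *Tpp1* and the thioesterase *Ppt1*, whose loss causes neuronal ceroid lipofuscinoses, were at 0.00 and 0.08 (intervals -0.30 to 0.30 and -0.14 to 0.29).

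**Figure D2:**
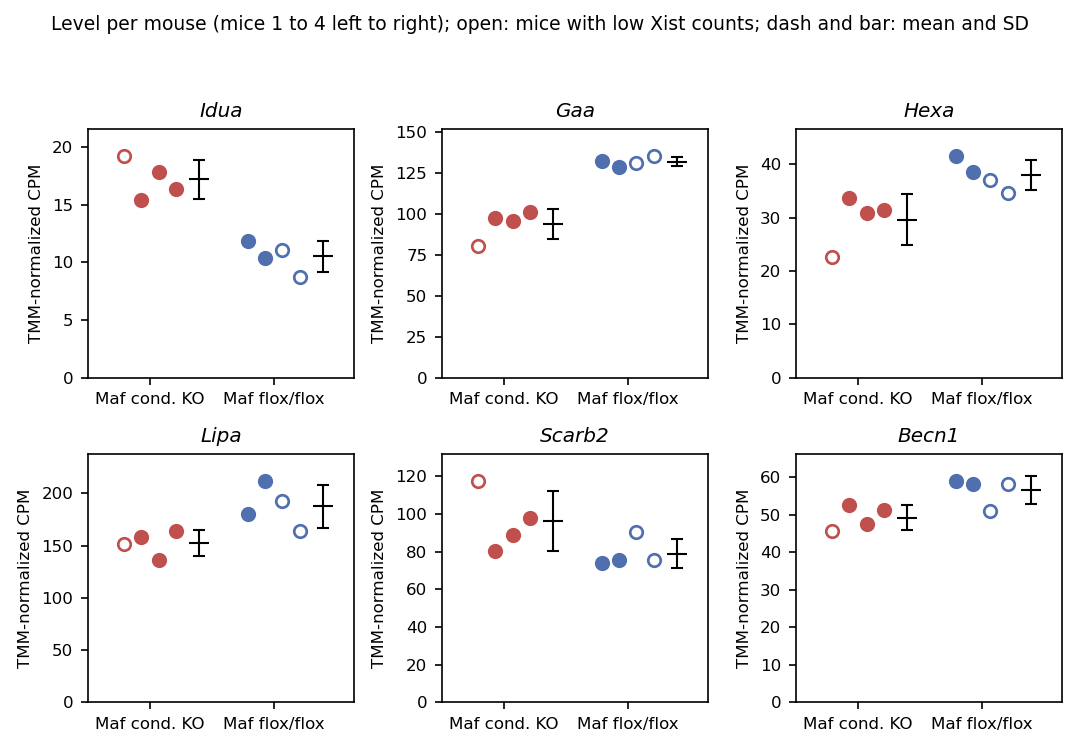
TMM-normalized CPM (y axes, starting at 0) of Idua, Gaa, Hexa, Lipa, Scarb2 and Becn1 in each mouse of each genotype (x axes), with mean and SD beside the points and open circles for the 3 mice with low Xist counts. Idua is higher and Gaa lower in all 4 Maf conditional KO mice, Hexa and Lipa separate without passing the adjusted test, and Scarb2 and Becn1 overlap.

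The 7 V-ATPase subunits showed small differences between genotypes. None was called by edgeR, 0 had an unadjusted *P* under 0.05, and the log2 fold changes ran from -0.09 (*Atp6v0d1*) to 0.16 (*Atp6v1a*), with all interval ends between -0.28 and 0.36. *Atp6v1a*, which also has the palindrome printed above, had both the smallest *P* and the highest level per kilobase (63.3 CPM per kb in Maf flox/flox mice). It measured 471, 429, 408 and 397 CPM in Maf conditional KO mice and 346, 382, 416 and 386 in Maf flox/flox mice. Maf flox/flox mouse 3 lay within the Maf conditional KO range, and the adjusted *P* of *Atp6v1a* was 0.493. *Atp6v1b2* and *Atp6v1h* of the cytosolic ATPase part, *Atp6v0a1* and *Atp6v0c* of the membrane part, and the accessory subunit *Atp6ap1* lay between -0.06 and 0.05. Marker genes of intercalated cells, which hold much V-ATPase, summed to 645 to 765 CPM in Maf conditional KO and 634 to 755 in Maf flox/flox mice, and 0 of the 10 were called. These markers include the V-ATPase subunit genes *Atp6v0a4*, *Atp6v1b1*, *Atp6v0d2* and *Atp6v1g3*, and *Atp6v0a4* alone averaged 309 and 278 CPM. Their sum is therefore not a measure of the cell type apart from V-ATPase RNA.

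*Tfeb* and *Tfe3*, the regulators, were not called either. *Tfeb* measured 23.1, 31.7, 30.8 and 35.7 CPM in Maf conditional KO mice and 38.7, 36, 34.3 and 34.8 in Maf flox/flox mice. Its 3 lowest values were in Maf conditional KO mice 1, 2 and 3, mouse 4 lay within the control range, and the log2 difference was -0.24 (interval -0.51 to 0.02, adjusted *P* = 0.406). *Tfe3* measured 35.4, 30.2, 31.8 and 27.3 CPM in Maf conditional KO and 31.9, 31.4, 27.9 and 31.1 in Maf flox/flox mice, and its ranges overlapped (log2 difference 0.03, adjusted *P* = 0.935). RNA level does not show the location of these factors in the cell, through which they are mainly controlled.

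Of the 7 autophagy genes 0 were called, and 0 were higher and 1 lower at an unadjusted *P* under 0.05. *Becn1*, beclin 1, a subunit of the lipid kinase complex that starts the autophagosome, had the smallest *P*. It measured 45.5, 52.6, 47.4 and 51.3 CPM in Maf conditional KO mice and 59.0, 58.1, 51.1 and 58.1 in Maf flox/flox mice. Maf flox/flox mouse 3 was the only control inside the Maf conditional KO range, and the log2 difference was -0.20 (interval -0.38 to -0.02, adjusted *P* = 0.300). *Becn1* shares 43.9% of its exonic bases with other genes, mainly *Cntd1*, so its counts come from the remaining exons.

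*Gabarapl1*, a member of the GABARAP family, had the highest level per kilobase of the autophagy genes (193 CPM per kb in Maf flox/flox mice). It measured 378, 333, 229.8 and 292 CPM in Maf conditional KO mice and 311, 321, 482 and 441 in Maf flox/flox mice (log2 difference -0.34, adjusted *P* = 0.453). *Sqstm1*, the cargo receptor p62, measured 394, 246, 220.2 and 317 CPM in Maf conditional KO and 329, 317, 453 and 439.9 in Maf flox/flox mice (log2 difference -0.39, adjusted *P* = 0.413). In both genes the ranges overlapped, and 2 controls, mice 3 and 4, were the highest of all 8 mice. *Gabarapl1* and *Sqstm1* share 28.3% and 17.3% of their exonic bases with other genes. *Map1lc3b* (LC3B), *Ulk1*, the kinase that initiates autophagy, and *Atg5* and *Atg7* of the conjugation machinery lay between -0.13 and 0.06, with interval ends from -0.34 to 0.31.

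The levels of some of the 47 genes separated the mice with low *Xist* from those with high *Xist*. In 13 of the 47 all 3 mice with low *Xist* lay above the other 5 (7.43% of all tested genes), and in 2, *Arsa* and *Manba*, all 3 lay below (6.85%). Of the 184 other pathway genes described below, 37 lay above and 13 below in the same way. The 13 of the 47 that lay above were *Lamp1*, *Lamp2*, *Npc2*, *Arsb*, *Glb1*, *Neu1*, *Psap*, *Man2b1*, *Fuca1*, *Tpp1*, *Atp6v1b2*, *Sqstm1* and *Gabarapl1*. This is a description with no test, since the labels do not define these sets of mice. *Psap* lay between 1540.1 and 1999.8 CPM in the 3 mice with low *Xist* and between 917 and 1016 in the other 5, and the ratio of the means was 1.77. *Arsb* had a ratio of 1.82, *Neu1* of 1.61, *Sqstm1* of 1.5, *Gabarapl1* of 1.46 and *Glb1* of 1.43, and the ratios of the other 7 lay between 1.15 for *Man2b1* and 1.31 for *Tpp1*. *Arsa* had a ratio of 0.757 and *Manba* one of 0.891. Mitochondrially encoded genes took 32.3% of the counts in Maf conditional KO mouse 1, 18.7% in Maf flox/flox mouse 3 and 25.5% in Maf flox/flox mouse 4, against 17.1% to 22.1% in the other 5. Summed levels of 6 of 10 marker lists (cell types and tubular injury) separated the same mice. The proximal tubule sum was 27697 to 30141 CPM in the 3 mice with low *Xist* and 18379 to 23460 in the other 5. This difference came mostly from *Kap*, at 8219 to 13730 CPM in the 3 and 1801 to 4195 in the other 5. Among the other markers, the mean of *Lrp2* was lower in the 3 (6297 against 7693). *Cubn* was level (1291 against 1292) and *Slc27a2* was higher (2897 against 2304). The hepatocyte list, mostly through *Cyp2e1*, was also higher in the 3. Sums were lower in the 3 for thick limb and distal tubule (4269 to 5810.0 against 6545 to 7055 CPM), podocyte (391 to 414 against 498 to 541), principal cell (408 to 417 against 496 to 728) and intercalated cell markers (634 to 645 against 714 to 765). The part of the mitochondrial share and of these cell types in the order of the 47 genes was not tested.

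**Figure D3:**
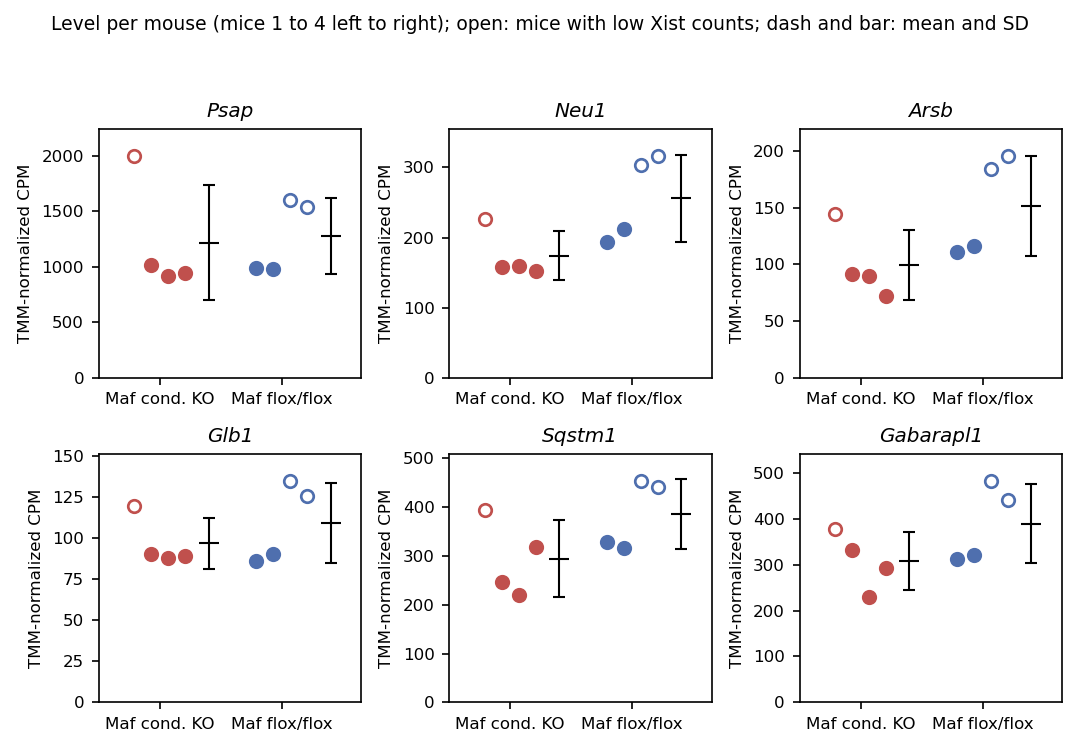
TMM-normalized CPM (y axes, starting at 0) of Psap, Neu1, Arsb, Glb1, Sqstm1 and Gabarapl1 in each mouse of each genotype (x axes), with mean and SD beside the points. The open circles, the 3 mice with low Xist counts, lie above all 5 filled circles in each panel, and for Psap the ratio of their means is 1.77.

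The 15 genes were spread over 7 of the 8 roles, with 4 of 8 among the sphingolipid genes, 1 of 7 among the V-ATPase subunits and neither *Tfeb* nor *Tfe3*. Maf conditional KO mouse 1 held the highest value of the 8 mice for 18 of the 47 genes and Maf flox/flox mouse 3 for 12, both mice with low *Xist*. The median of the centred log2 levels was 0.13 in each of them and 0.08 in Maf flox/flox mouse 4, and it lay between -0.10 and -0.03 in the 5 mice with high *Xist*.

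**Figure D4:**
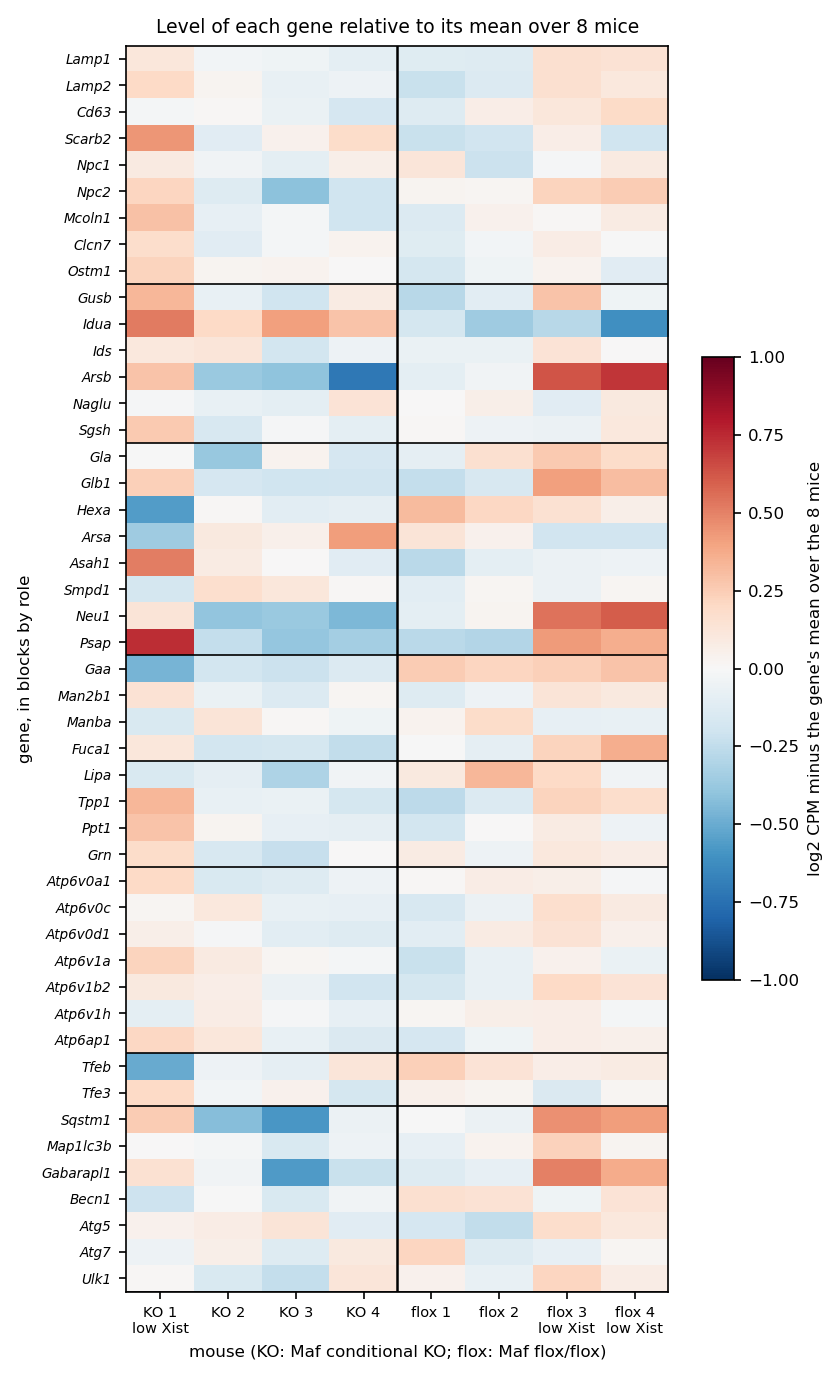
Log2 CPM of the 47 genes (rows, in blocks by role) in the 8 mice (columns) after subtracting each gene's mean, from blue (-1) to red (1). Columns of the 3 mice with low Xist are red for most genes, while the rows of Idua and Gaa change color between the genotypes.

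With the *Xist* level as a covariate, 3 of the 47 genes were higher in Maf conditional KO mice (2.63% of all tested genes) and 5 were lower (4.27%). Beside *Idua* (log2 fold change 0.71, adjusted *P* = 0.00188) the higher genes were *Scarb2* (0.33, adjusted *P* = 0.0232) and *Asah1* (0.30, adjusted *P* = 0.0448). Beside *Gaa* (-0.52, adjusted *P* = 0.000331) the lower genes were *Neu1* (-0.44, adjusted *P* = 0.00121), *Arsb* (-0.46, adjusted *P* = 0.00262), *Hexa* (-0.43, adjusted *P* = 0.00694) and *Lipa* (-0.31, adjusted *P* = 0.0405). Among the 184 other pathway genes described below, this fit called 7 higher (*Trp53inp1*, *Trp53inp2*, *Rragd*, *Tmem106b*, *Atp6v0e2*, *Sesn3* and *Atp6v1c1*) and 10 lower (*Tpcn1*, *Lamtor4*, *Calcoco1*, *Gnptg* and the 6 genes lower with genotype alone). The standard error of *Arsb* was 0.0846 in this fit and 0.268 with genotype alone, and for *Neu1* the values were 0.0728 and 0.187. For *Psap* the difference with the covariate was 0.05 (SE 0.0776, adjusted *P* = 0.765).

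In the 5 mice with high *Xist* alone, where 21027 genes were tested, 1 of the 47 genes was higher (1.53% of all tested genes) and 3 were lower (2.22%). *Idua* was again higher (0.57, adjusted *P* = 0.0385), and *Gaa* (-0.41, adjusted *P* = 0.00639), *Neu1* (-0.37, adjusted *P* = 0.0148) and *Arsb* (-0.43, adjusted *P* = 0.0255) were lower. *Scarb2*, *Asah1*, *Hexa* and *Lipa* had the same sign as in the other fits and did not pass (adjusted *P* of 0.207, 0.436, 0.0879 and 0.0631). This fit compares 3 Maf conditional KO mice with 2 controls, all of which also entered the other fits. Of the other pathway genes it called 4 higher (*Trp53inp1*, *Plekhm2*, *Tmem106b* and *Atp6v1c1*) and 3 lower (*Scpep1*, *Ctsl* and *Lgmn*).

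**Figure D5:**
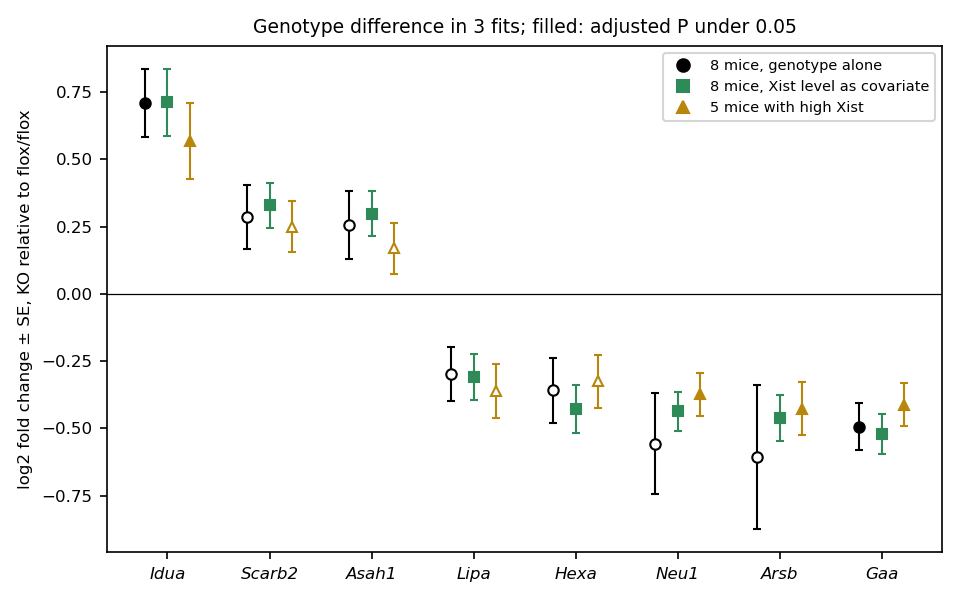
Log2 fold change ± SE (y axis) of the 8 genes that passed the adjusted test in the fit with the Xist level as a covariate (x axis), in 3 fits: genotype alone in 8 mice (circles), with the covariate (squares) and in the 5 mice with high Xist (triangles). Filled symbols have an adjusted P under 0.05, and Idua and Gaa are filled in all 3 fits. All 8 genes keep their sign, in fits that share mice and are therefore not independent.

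The other genes of the pathway were 187 genes in 7 lists, of which 184 passed the filter on low counts (*Atp6v1e2*, *Gpnmb* and *Atg9b* did not). None was called higher by edgeR's quasi-likelihood test, although 9 of 184 were higher at an unadjusted *P* under 0.05 (6.58% of all tested genes), and edgeR's exact test and DESeq2 called 1 and 2. Called lower were 6 of 184 (1.58% of all tested genes), and 15 were lower at an unadjusted *P* under 0.05 (7.44% of all tested genes). The median log2 fold change of the 184 was -0.02. Cathepsins and legumain gave 2 of the 6 lower genes, both endosomal and lysosomal cysteine proteases. *Lgmn*, legumain, measured 168, 151, 148 and 126 CPM in Maf conditional KO mice and 471, 492, 484 and 509.7 in Maf flox/flox mice, and fell by 1.72 on the log2 scale (adjusted *P* = 4.88e-06). *Ctsl*, cathepsin L, measured 217, 229, 220.3 and 222 CPM in Maf conditional KO and 342, 365, 359 and 356 in Maf flox/flox mice, and fell by 0.68 (adjusted *P* = 0.000431). Neither gene had overlapping values, and both falls were larger on the log2 scale than the 0.49 of *Gaa*.

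*Scpep1*, a serine carboxypeptidase, fell by 0.86 (adjusted *P* = 0.000318), and of the 24 other lysosomal hydrolases it was the only one called. *Castor1*, the arginine sensor of the mTORC1 pathway, fell by 0.81 (adjusted *P* = 0.0193), *Slc66a1*, listed in the file as *Pqlc2* and encoding a lysosomal exporter of cationic amino acids, by 0.59 (adjusted *P* = 0.0492), and the V-ATPase subunit gene *Atp6v1g1* by 0.44 (adjusted *P* = 0.0469). Of these 6 genes, *Lgmn*, *Ctsl* and *Scpep1* kept the call in all 8 fits that each left out a mouse, *Castor1* in 4, *Slc66a1* in 2 and *Atp6v1g1* in 1, without Maf conditional KO mouse 2, its adjusted *P* in the others reaching 0.142. By edgeR's quasi-likelihood test the lists for sorting to lysosomes (30 genes) and other autophagy genes (44 tested) held 0 called genes. At an unadjusted *P* under 0.05 in that test, the sorting list held 0 higher and 1 lower. The autophagy list held 3 higher and 1 lower, beside 6.58% higher and 7.44% lower of all tested genes. DESeq2 called *Gnptg* and *Calcoco1* lower and *Trp53inp1* higher, and edgeR's exact test called *Trp53inp1* higher.

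Markers of macrophages, which are rich in lysosomes, were not called by edgeR (0 of 12), and their median log2 fold change was 0.23. At an unadjusted *P* under 0.05 in that test, 3 were higher (*Csf1r*, *Lyz2* and *Cx3cr1*) and 0 lower, beside 6.58% and 7.44% of all tested genes. The summed level of the 12 was 138 to 155 CPM in Maf conditional KO and 118 to 134 in Maf flox/flox mice, without overlap. *Csf1r* had the largest share of this sum (means of 61.0 and 54.3 CPM). Taken singly, 0 of the 12 markers were without overlap, beside 9.79% of all tested genes. The log2 fold change was positive for 10 of them and negative for 2 (*C1qb* and *Mrc1*). Of the 12 proximal tubule markers 3 were lower in Maf conditional KO mice (*Slc34a1*, *Slc5a12* and *Gatm*), beside 1.58% of all tested genes. In this list 10 markers had a negative and 2 a positive log2 fold change. The summed level of the list was 18379 to 27697 CPM in Maf conditional KO and 20100 to 30141 in Maf flox/flox mice. Much of its spread came from *Kap*, at 3342 to 13730 and 1801 to 8760 CPM. The endothelial marker *Kdr* was the only other marker called, also lower (log2 fold change -0.37, adjusted *P* = 0.0450). The part of any of these cell types in the fall of *Gaa* or the rise of *Idua* was not tested.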

How the data were processed

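The authors deposited whole-number counts of reads per gene name, made with featureCounts 2.0.1 on exons of Ensembl release 102 (GRCm38). Per the file header, mates of a pair gave a count each, strand was ignored, and a read touching exons of more than 1 gene was dropped. The submitters' processing notes list Subread 2.0.2 and edgeR 3.36.0, and the study's methods describe mapping to mm10 in CLC Genomics Workbench. Whether that mapping gave the deposited counts is not stated. The 47 genes and all gene lists were chosen with earlier results of these data known. Genes were kept by filterByExpr, libraries were scaled by TMM, and the genotypes were compared over all 20149 genes with edgeR 4.0.16 (robust quasi-likelihood test, R 4.3.3, limma 3.58.1) without covariates, with Benjamini-Hochberg adjustment at 0.05. The standard error was derived from the log2 fold change and its F value, and log2 levels used a prior count of 2.

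Named genes were *Maf*, every called member, the member of each role class with the smallest *P* and the one with the highest level per kilobase, *Tfeb*, *Tfe3*, and called genes of the other lists. Other members were named beside class ranges or after their values were seen. As alternatives the fit used RLE or upper-quartile factors, DESeq2 1.42.0, the exact test of edgeR, limma-trend after quantile normalization, at least 1 count in any library, at least 10 counts in every library, the replicate number as a block, the *Xist* level as a covariate, the 5 libraries with over 1000 *Xist* counts, counts without mitochondrially encoded genes, an adjusted *P* under 0.01, and each mouse left out. The fit was tested on simulated counts. Start-site sequences came from RefSeq (GRCm38.p6), shared 36-base sequences from GENCODE transcripts, and figures were drawn with matplotlib.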

Additional observations from a re-analysis of the deposited data

Results flagged for a closer look

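Within a genotype, 1 mouse lay far from the other 3 in 6 of 108 groups of values (54 genes, 2 genotypes), by the ratio of its gap to the whole range (Dixon's 95% limit). Chance gives about 1 in 20 such groups, or 5.4 here. The values were 1999.8 CPM for *Psap* in Maf conditional KO mouse 1 (others 917 to 1016), 227 CPM for *Neu1* in the same mouse (others 152 to 160.03), 119.8 CPM for *Glb1* in the same mouse (others 88.1 to 90.4) and 26.2 CPM for *Ostm1* in the same mouse (others 22.6 to 23.1). In Maf flox/flox mouse 3 they were 90.5 CPM for *Scarb2* (others 74.3 to 75.7) and 51.1 CPM for *Becn1* (others 58.1 to 59.0). Both mice are among the 3 with low *Xist* counts.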

How the results depend on the processing

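The 1 member called higher and the 1 called lower (*Idua* and *Gaa*) were the same genes under RLE and upper-quartile factors, quantile normalization, the exact test, DESeq2, both filters and the counts without mitochondrially encoded genes. With the *Xist* covariate there were 3 higher and 5 lower, and in the 5 libraries with high *Xist* 1 higher and 3 lower. At an adjusted *P* under 0.01 there were 0 of either. Leaving out each mouse gave 0 to 1 higher (0 without Maf conditional KO mouse 3) and 1 lower. The replicate numbers did not pair the mice (correlations of same-numbered mice from -0.373 to 0.152), and with the replicate number as a block 0 members were called higher, 0 lower, and 3 of the other pathway genes lower. Other pathway genes called higher numbered 1 with upper-quartile factors, 2 with quantile normalization, 1 with the exact test, 2 with DESeq2, 1 without the filter, 7 with the *Xist* covariate and 4 with high *Xist*, and 0 to 1 without a mouse. Those called lower (6) numbered 5 with RLE factors, where *Slc66a1* was lost. They numbered 4 each with upper-quartile factors, quantile normalization and at least 10 counts in every library, where *Slc66a1* and *Atp6v1g1* were lost. Without the filter they were the same 6 and *Calcoco1*. They numbered 11 with DESeq2, 10 with the covariate, 3 with high *Xist*, 3 at 0.01, and 3 to 5 without a mouse. The lowest of these last came without Maf conditional KO mouse 3 or Maf flox/flox mouse 2 or 3. The Maf log2 fold change was -4.28 with the block (adjusted *P* = 0.0516) and -3.87 with high *Xist* (adjusted *P* = 0.108). The cause of these shifts was not tested. The members' median stayed between -0.08 and 0.03. It was 0.02 with upper-quartile factors, where the median of all genes was 0.05, and 0.03 with quantile normalization, where that median was 0.01. Over *Maf*, the 47 members and the 6 other genes called lower, no alternative that was run reversed the sign of a called gene. The 4 mice per genotype and the spread tied to *Xist* limit what could be detected, and intervals for *Psap* and *Arsb* are the widest.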
